A study of Oryza sativa Indica Group with 6 samples.

Results

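The genes described here are those of mitochondrial respiration and the tricarboxylic acid (TCA) cycle in rice leaves. They were chosen by the words of the description that the array gives each probe: cytochrome c, NADH dehydrogenase or NADH-ubiquinone, ubiquinol, ATP synthase, succinate, malate, isocitrate or pyruvate dehydrogenase, citrate synthase, aconitase and fumarase, with descriptions naming the chloroplast left out. The words matched 59 of 21495 gene probes, and 58 of the 59 passed the filter on dim probes. Each of 6 Agilent arrays of 2 colours carried leaf RNA of both FR13A (submergence tolerant) and IR24 (susceptible), with 2 arrays per time. The groups were untreated leaves taken 14 days after sowing (constitutive in the labels), leaves of plants held under water in clear polythene bags for 15 min and taken on day 14, and leaves of plants submerged for 24 h and taken on day 15. All plants grew in growth chambers. No arrays held unsubmerged plants of day 15 or plants that were bagged without water, so submergence cannot be told apart from age and handling. The labels number the replicates but do not say whether they were separate plants, so p-values measure the spread between arrays, which may be technical.

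Leaf cells pass pyruvate from glycolysis to the pyruvate dehydrogenase complex, which makes acetyl-CoA for the TCA cycle and which pyruvate dehydrogenase kinase switches off by phosphorylation. The cycle yields NADH and succinate, whose electrons run through complexes I to IV to oxygen, and ATP synthase uses the resulting proton gradient. Oxygen is the last acceptor of this chain, and submerged leaves receive it slowly because gases diffuse slowly in water. Malate dehydrogenases exist in mitochondria, cytosol, peroxisomes and plastids and move reducing power between these compartments.

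The median signal of the 38 leaf marker probes (Rubisco small subunit, chlorophyll-binding and photosystem genes) lay at 26.8 to 81.5 times background by genotype and time. Of these, 36 to 38 were well above background on both arrays. The medians of root, pollen and seed storage markers lay at no more than 11.4 times background. Many of these were detected too, with 7 to 11 of 12 root, 5 to 8 of 9 pollen and 7 to 8 of 11 seed storage probes well above background on both arrays. Between the genotypes across all times, 4 of 9 pollen markers were higher in FR13A and 0 lower at a limma p, adjusted over all probes kept, under 0.05 (10.1% of all probes were higher; median 0.23 on the log2 scale, at 1.95 to 5.31 times background), and the part of such RNA in the differences below was not tested. Of the leaf markers 4 were higher and 3 lower, of the root markers 2 and 1, and of the seed storage markers 1 and 0. Over the arrays, 85.4% to 92.2% of gene probes in Cy3 and 81.8% to 95.3% in Cy5 were well above background, and the number of arrays limits the precision. For 56 of the 58 members, both channels were well above background on every array.

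Many descriptions name the closest sequence of another species. A rice gene describes 17 members, another plant describes 40 and an animal describes 2, and all but the first kind are written here as "like" that gene. By role, 6 members belonged to pyruvate dehydrogenase and its kinases, 1 to citrate synthase, 3 to aconitase, 5 to isocitrate dehydrogenase, 3 to succinate dehydrogenase (complex II) and 14 to malate dehydrogenase. Another 12 belonged to NADH dehydrogenase (mostly complex I), 8 to cytochrome c and complexes III and IV, and 7 to ATP synthase. No probe was described as fumarase. The words also caught a mitochondrial NAD malic enzyme-like probe (AK065801) and external or other NADH dehydrogenases (AK103572, AK064752), which stayed members. Values are log2 ratios of FR13A over IR24, or log2 changes in time, with the standard error (SE) of a limma fit. A member is "called" where its p, adjusted over all probes kept, was under 0.05.

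Across all 3 times, the 2 genotypes differed in 14 of the 58 members, which is 24.1% of them, beside 20.2% of all probes tested. FR13A was higher in 8 and lower in 6 (10.1% of all probes were called in each direction), and the median difference of the members was 0.042 beside -0.0037 over all probes. The higher members were both brighter aconitase-like probes, a complex I subunit-like probe, pyruvate dehydrogenase kinase 1, an ATP synthase gamma-like probe and 3 malate dehydrogenases. Citrate synthase, a pyruvate dehydrogenase E1 beta-like probe, the 6 kDa ATP synthase subunit, the other gamma-like probe and 2 malate dehydrogenases were lower. None of the 58 reached a measured difference of 1 on the log2 scale. The largest was 0.90, for AK072342, whose IR24 signal was not well above background. In 10 of the 14 all 6 arrays had the same direction, and in 3 of them 5 arrays did. The calls came from these same arrays, so this agreement adds no support. Among all 58, called or not, 16 had 1 direction on every array with a value. With global median centring in place of loess 4 of the 14 stayed called, while the share of all probes called fell from 20.2% to 5.11%. These 4 were citrate synthase, AK101730, AK072104 and AK072342, the last with IR24 not well above background. Within the 2 scan days that held several groups the median of the members was -0.024 and 0.053. The first of these days held only replicate 1 of both submerged groups, with FR13A in Cy5 throughout. On the other day the dyes were not balanced, so a dye effect does not cancel in either median. In the main fit no member was called in isocitrate dehydrogenase, succinate dehydrogenase, or cytochrome c and complexes III and IV.

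**Figure D1:**
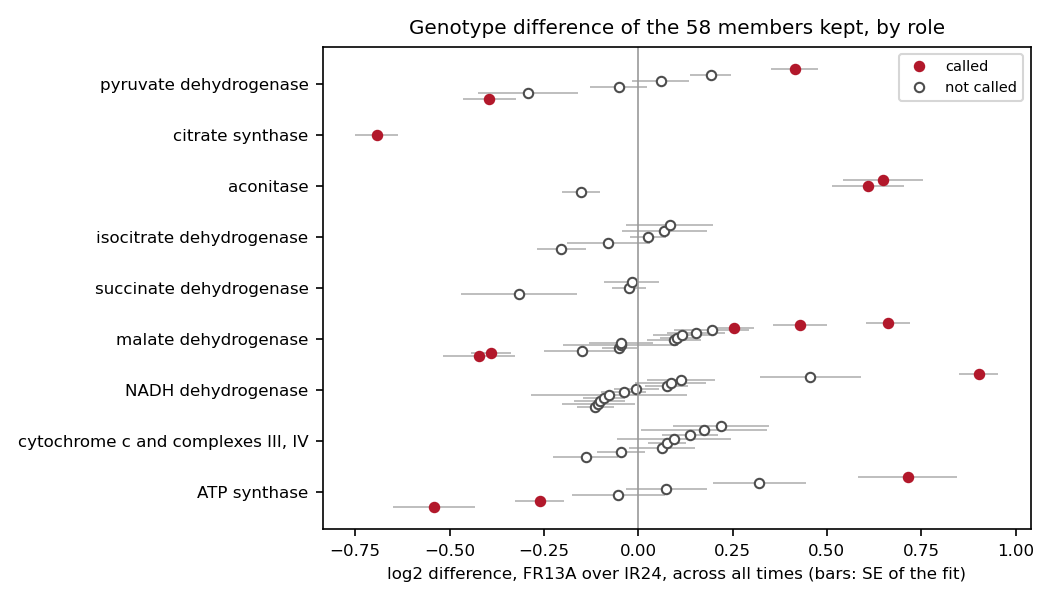
Log2 difference of FR13A over IR24 across all times for the 58 members kept, by role (points, with bars of 1 SE of the fit, n = 6 arrays). Filled points are the 14 called members. They lie on both sides of 0. For the filled point of NADH dehydrogenase (AK072342) IR24 was not well above background. The rows of isocitrate dehydrogenase, succinate dehydrogenase and cytochrome c with complexes III and IV hold open points only.

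Pyruvate dehydrogenase E1 alpha (AK069299, a rice clone) encodes the subunit that decarboxylates pyruvate and that the kinase phosphorylates. Its log2 ratios were 0.59 and 0.45 on the arrays of untreated leaves, 0.50 and 0.65 at 15 min, and -0.44 and -0.59 at 24 h. FR13A was thus higher on all 4 arrays of the first times and lower on both arrays of 24 h, with no overlap. The difference was called at each time, at 0.52 in untreated leaves (SE 0.094, adjusted p = 0.036), 0.57 at 15 min (SE 0.094, adjusted p = 0.030) and -0.51 at 24 h (SE 0.094, adjusted p = 0.032), and not across all times (0.19, adjusted p = 0.061). The kinase that opposes it, pyruvate dehydrogenase kinase 1 (AK069157, described from indica rice), had ratios of 0.71 and 0.92 in untreated leaves, 0.48 and 0.76 at 15 min, and -0.15 and -0.24 at 24 h. It too was higher in FR13A on the 4 earlier arrays and lower on both arrays of 24 h. The fit called it in untreated leaves (0.82, SE 0.11, adjusted p = 0.014), at 15 min (0.62, SE 0.11, adjusted p = 0.035) and across all times (0.41, SE 0.062, adjusted p = 0.0082), while 24 h gave -0.19 (adjusted p = 0.39). With any 1 array left out, the calls of E1 alpha at each time were lost (adjusted p from 0.052 to 0.28), as was that of the kinase at 15 min (0.068 to 0.25). The call of the kinase in untreated leaves was lost without either untreated array (0.11). Scan day as a block ended all 3 calls of E1 alpha (adjusted p of 0.10, 0.086 and 0.073 in order of time). It also ended the calls of the kinase in untreated leaves (0.082) and at 15 min (0.075). The differences of E1 alpha under the block were 0.57, 0.55 and -0.54, and the block leaves fewer degrees of freedom.

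A maize pyruvate dehydrogenase E1 beta isoform 1-like probe (AK071782), which represents the partner of E1 alpha, had ratios of -0.14 on both untreated arrays, -0.64 and -0.23 at 15 min, and -0.70 and -0.51 at 24 h. All 6 arrays had FR13A lower. The call stood across all times (-0.39, SE 0.071, adjusted p = 0.016) and at 24 h (-0.61, SE 0.12, adjusted p = 0.044). The 24 h call was lost without any one untreated or 24 h array (adjusted p from 0.094 to 0.29) or with scan day as a block (0.058), and the call across all times was lost without constitutive replicate 1 (adjusted p = 0.063), constitutive replicate 2 (0.061) or 24 h replicate 1 (0.060). The other E1 beta-like probe (AK069525, 0.06), the second kinase-like probe (AK100033, -0.05) and a tomato pyruvate dehydrogenase-like probe (AK062242, -0.29) were not called across all times.

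Citrate synthase (AK072950), which joins acetyl-CoA to oxaloacetate, was lower in FR13A on every array. Its ratios were -0.84 and -0.76 in untreated leaves, -1.11 and -0.86 at 15 min, and -0.36 and -0.23 at 24 h, so the arrays of 24 h lay nearest to 0. FR13A was lower by 1.62-fold across all times (log2 -0.69, SE 0.057, adjusted p = 0.001029), by 1.74-fold in untreated leaves (adjusted p = 0.012) and by 1.98-fold at 15 min (adjusted p = 0.0069). At 24 h the difference of -0.30 was not called (adjusted p = 0.16). Leaving out either untreated array took away the call in untreated leaves (adjusted p of 0.15 and 0.089), and those across all times and at 15 min stood whichever array was left out.

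Aconitase turns citrate into isocitrate. An Arabidopsis cytoplasmic aconitase-like probe (AK061677) had ratios of 0.32 and 0.99 in untreated leaves, 0.65 and 1.06 at 15 min, and 0.50 and 0.37 at 24 h. A pumpkin aconitase-like probe (AK067183) had 0.55 and 1.07, then 0.50 and 0.90, then 0.44 and 0.20. FR13A was higher on all 6 arrays for both. Across all times they differed by 0.65 (SE 0.11, adjusted p = 0.011) and 0.61 (SE 0.096, adjusted p = 0.0099), and neither was called at a single time. The third, a lemon aconitase-like probe (AK065937), was well above background on only 3 of 6 arrays in IR24 and 2 of 6 in FR13A. It was not called across all times at -0.15 (adjusted p = 0.090), while the processed signals of the scanner software put it at -0.77 (adjusted p = 0.0043).

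The 5 isocitrate dehydrogenase members, NAD and NADP forms that make 2-oxoglutarate, ranged from -0.20 to 0.08 across all times. The 3 members of succinate dehydrogenase, which feeds electrons of succinate into the chain, ranged from -0.32 to -0.018. The extreme of the first was an Arabidopsis At5g14590-like probe (AK070042, adjusted p = 0.086) and of the second an sdh4-like probe (AK064496, adjusted p = 0.22). None of the 8 was called in any of the 4 genotype comparisons of the main fit. With scan day as a block both named probes were called across all times (adjusted p of 0.048 and 0.023).

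Malate dehydrogenase, which interconverts malate and oxaloacetate, gave 5 calls among 14 members over the 3 times, with FR13A higher in 3 and lower in 2, beside 10.1% of all probes in each direction. A tobacco NAD-malate dehydrogenase-like probe (AK101730) had the most even ratios, 0.61 and 0.71 in untreated leaves, 0.61 and 0.78 at 15 min, and 0.52 and 0.75 at 24 h. It was called in all 4 genotype comparisons, at 1.58-fold across all times (log2 0.66, SE 0.058, adjusted p = 0.0013). The other probe with this description, AK058477, was not called between genotypes (0.19 across all times, adjusted p = 0.24).

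The 2 probes described as rice cytoplasmic malate dehydrogenase had opposite differences. AK059248 had ratios of -0.21 and -0.26, then -0.30 and -0.51, then -0.48 and -0.57 in order of time, and FR13A was lower on all 6 arrays (-0.39, SE 0.053, adjusted p = 0.0058). AK066396 had -0.10 and 0.34, then 0.45 and 0.56, then 0.63 and 0.69, and FR13A was higher on 5 of the 6 (0.43, SE 0.071, adjusted p = 0.012). Both were called at 24 h, at -0.52 (adjusted p = 0.028) and 0.66 (adjusted p = 0.034). The call of AK066396 across all times was lost without 24 h replicate 2 (adjusted p = 0.0504).

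Mitochondrial malate dehydrogenase of rice (AK071699), the TCA cycle form, had ratios of 0.25 and 0.41 in untreated leaves, 0.36 and 0.29 at 15 min, and 0.05 and 0.16 at 24 h. FR13A was higher on all 6 arrays, by 0.26 (SE 0.051, adjusted p = 0.022). The other probe with the same description (AK073698, a value on 4 arrays) lay at 0.10 and was not called. Leaving out any array but constitutive replicate 1 took the call of AK071699 away (adjusted p from 0.058 to 0.087). An alfalfa nodule-enhanced malate dehydrogenase-like probe (AK071297) had 0.26 and -0.21 in untreated leaves, -0.71 and -0.22 at 15 min, and -0.88 and -0.77 at 24 h. The 2 untreated arrays lay on either side of 0 and all 4 arrays of submerged plants had FR13A lower. It was called across all times (-0.42, SE 0.096, adjusted p = 0.032) and at 24 h (-0.82, SE 0.17, adjusted p = 0.043). The first of these calls was lost without constitutive replicate 2, 15 min replicate 1 or either 24 h array (adjusted p from 0.072 to 0.10).

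**Figure D2:**
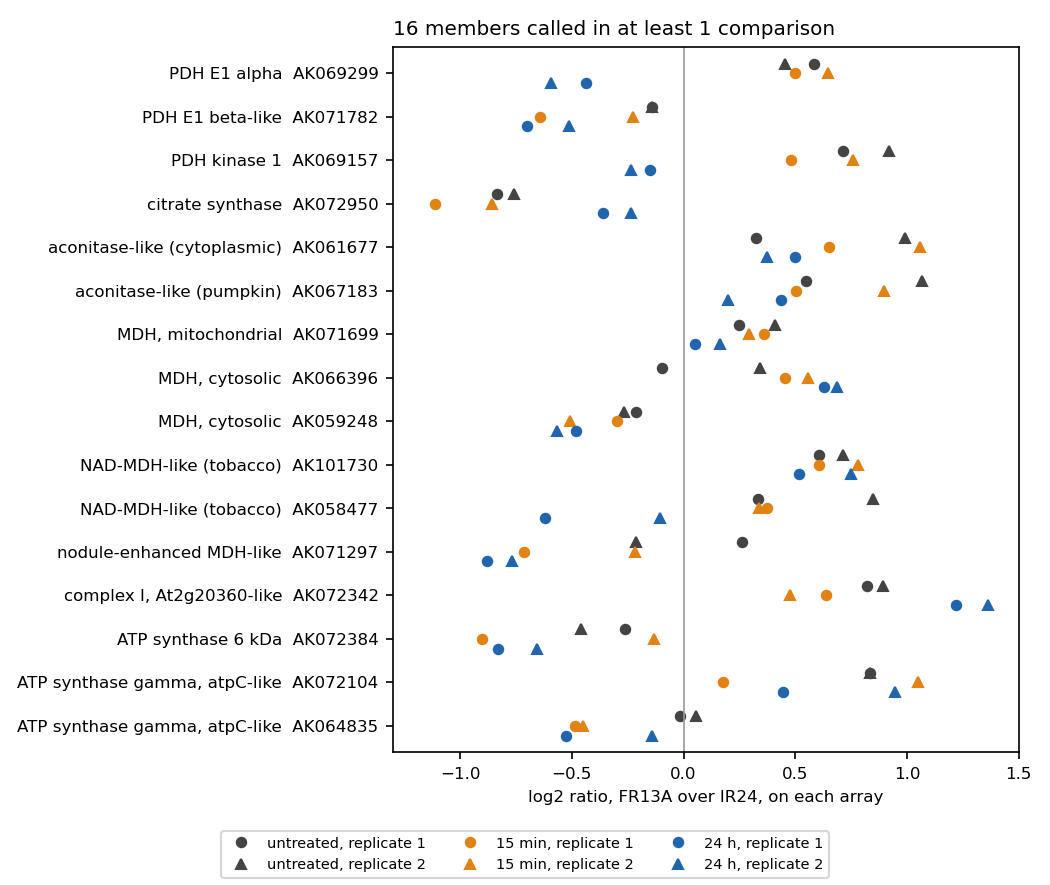
Log2 ratio of FR13A over IR24 on each of the 6 arrays for the 16 members called in at least 1 of the 10 comparisons (circles, replicate 1; triangles, replicate 2 with dyes exchanged; colours, time). E1 alpha and pyruvate dehydrogenase kinase 1 lie right of 0 in untreated and 15 min leaves and left of 0 at 24 h, while the tobacco NAD-malate dehydrogenase-like probe AK101730 stays between 0.52 and 0.78.

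Of complex I, which takes electrons from NADH, an Arabidopsis At2g20360-like subunit probe (AK072342) was well above background on all 6 arrays in FR13A and on 0 of 6 in IR24. The level of IR24 is thus not known. The measured ratios were 0.82 and 0.89 in untreated leaves, 0.64 and 0.48 at 15 min, and 1.22 and 1.36 at 24 h. The arrays of 15 min lay lowest and those of 24 h highest, but with IR24 not well above background this order cannot be read as a change. The probe passed the filter on dim probes through FR13A alone, and it was also called across all times with no filter. Set against the lowest signal well above background of any gene probe on each array, the mean of FR13A was 1.78-fold higher across all times. This floor gave 1.69-fold in untreated leaves, 1.41-fold at 15 min and 2.38-fold at 24 h. These folds are not strict lower bounds, since a dim probe can exceed this floor without being well above background. The limma fit of the measured ratios, not of these folds, gave an adjusted p of 0.000331 across all times. In order of time it gave 0.0073, 0.029 and 0.0014. These p rest on IR24 values not well above background, and the probe counts as called at each time and across all times. Scan day as a block ended the calls in untreated leaves (adjusted p = 0.063) and at 15 min (0.082). A second probe with this description, AK102271, was bright in both genotypes and not called at 0.11 (adjusted p = 0.45). A sequence difference between the genotypes under a probe also alters its ratio, and this cannot be told apart from transcript level here. The other 10 NADH dehydrogenase members ranged from -0.11 to 0.46.

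Complexes III and IV pass electrons through cytochrome c to oxygen. Their 8 members lay between -0.14 and 0.22, and the smallest adjusted p was 0.27. Cytochrome c itself (AK060267) was at 0.22 (SE 0.13), cytochrome c oxidase subunit 5c (AK072527) at 0.08 (SE 0.050) and the subunits described as 6b-1 (AK062787) and COX6b2 (AK111257) at -0.14 and 0.14.

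ATP synthase gave 3 calls among 6 members tested across all times, beside 20.2% of all probes. The 6 kDa subunit (AK072384) had ratios of -0.26 and -0.46, then -0.90 and -0.13, then -0.83 and -0.65 in order of time, with FR13A lower on all 6 arrays (-0.54, SE 0.11, adjusted p = 0.022). Both probes like tobacco atpC, the name of the gamma subunit of the chloroplast enzyme in plants, were members because their description does not name the chloroplast. AK072104 had 0.83 on both untreated arrays, 0.17 and 1.05 at 15 min, and 0.45 and 0.95 at 24 h, and FR13A was higher on all 6 (0.71, SE 0.13, adjusted p = 0.016). AK064835 had -0.018 and 0.057, then -0.49 and -0.45, then -0.53 and -0.14, and FR13A was lower on 5 of 6 (-0.26, SE 0.065, adjusted p = 0.043). Leaving out either untreated array took all 3 calls away (adjusted p from 0.068 to 0.13), as did other arrays: 24 h replicate 1 for AK072384 and AK064835, 24 h replicate 2 for AK072384 and AK072104, and either 15 min array for AK064835 (adjusted p from 0.060 to 0.11). Scan day as a block also ended the call of AK064835 (0.0502). The beta subunit-like probe (AK064953) lay at 0.32 (adjusted p = 0.13).

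The ratios gave 9 pairs of members with one description. In 4 pairs the estimates had opposite signs, and in 2 pairs, the cytosolic malate dehydrogenases and the atpC-like probes, both probes were called in opposite directions. One description therefore did not carry one value. The 10 members that are mitochondrially encoded by their description had 9 tested, ranging from -0.32 to 0.46 across all times. In the main fits 0 of 9 was called in any of the 10 comparisons. Among these, 1 of 9 had an unadjusted limma p under 0.05 across all times, beside 33.2% of all probes. This was a complex I subunit 1-like probe (AK064531, 0.46, adjusted p = 0.069). It was called with the processed signals (adjusted p = 0.042), a normexp offset of 10 (0.042), the deposited values (0.046) and scan day as a block (0.028). The last of these also called the sdh4-like AK064496 (0.023). Across all times 20.2% of all probes were called, and whether these members differ from the rest was not tested.

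By time, FR13A differed from IR24 in 5 of 58 members in untreated leaves (4 higher, 1 lower; 8.62%, beside 6.15% of all probes, 3.18% higher and 2.96% lower). At 15 min it was again 5 of 58 (4 higher, 1 lower; 8.62%, beside 5.34%, or 2.42% and 2.91%). At 24 h it was 7 of 58 (3 higher, 4 lower; 12.1%, beside 7.62%, or 3.5% and 4.12%). The members of the first count were the complex I subunit-like AK072342, AK101730, E1 alpha and the kinase above 0 and citrate synthase below it, and those at 15 min were the same 5. At 24 h AK072342, AK101730 and the cytosolic AK066396 were higher, and E1 alpha, E1 beta-like AK071782, AK059248 and AK071297 were lower. For AK072342 the IR24 signal was not well above background at any time. Its calls, also those below with an array left out, rest on dim IR24 values and on a filter passed through FR13A alone. The median of the members was 0.037, 0.048 and -0.063 in order of time. Each time had 2 arrays, and whichever array was left out, 0 of 5, 1 of 5 (citrate synthase) and 1 of 7 (AK072342) stayed called in order of time. The other calls had an adjusted p of 0.0503 to 0.29 where they were lost. AK101730 lost its call in untreated leaves without either untreated array (0.17 and 0.15) or with scan day as a block (0.071), and its calls at 15 min (0.055 to 0.18) and 24 h (0.0503 to 0.20) without an untreated array or one of the time itself.

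Whether the difference itself changed with submergence was tested on the ratios. From untreated leaves to 15 min, limma called 0 of 58 members (0% of all probes), and 1 member had an unadjusted p under 0.05 (1.72%, beside 2.1% of all probes). From untreated leaves to 24 h, 0 of 58 were called, beside 0.108% of all probes. At an unadjusted p under 0.05 there were 9 of 58 members (15.5%), 6 with a fall of FR13A relative to IR24 and 3 with a gain, beside 6.96% of all probes. E1 alpha had the smallest p, with a change of -1.03 (SE 0.13, unadjusted p = 0.000321, adjusted p = 0.10), and the kinase followed with -1.01 (SE 0.15, adjusted p = 0.16). Within the scan day that held 1 array of each time, the changes were -1.18 and -0.95. The untreated and 24 h arrays of that day had opposite dyes, so a dye effect does not cancel in these changes. The median change was -0.10 for members and -0.0023 for all probes. The ratio of neither gene passed the threshold, and no difference in response between the genotypes is shown for any member.

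Changes in time within each genotype lie between arrays, so they rest on normalised intensities of the 12 channels, a secondary measure. It held 52 members, since 6 with a marked spot had no complete set of values. At 15 min 0 of 52 were called in IR24 (2.06% of all probes) and 0 of 52 in FR13A (1.6% of all probes). At an unadjusted limma p under 0.05 there were 4 members in IR24 (7.69%, beside 10.1% of all probes). In FR13A there were 5 (9.62%, beside 10.6%). At 24 h 5 of 52 were called in IR24, 2 higher and 3 lower (9.62%, beside 8.92% of all probes, 4.59% higher and 4.33% lower), and 4 of 52 in FR13A, 1 higher and 3 lower (7.69%, beside 9.83%, or 4.25% and 5.57%). The median change at 24 h was -0.051 in IR24 and -0.078 in FR13A, beside 0.0080 and 0.0032 over all probes.

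E1 alpha rose in both genotypes. In IR24 its log2 intensity was 11.79 and 11.70 in untreated leaves, 12.17 and 12.03 at 15 min, and 13.26 and 13.59 at 24 h. In FR13A it was 12.38 and 12.16, then 12.66 and 12.68, then 12.82 and 13.00. The 24 h arrays did not overlap the untreated ones in either genotype. The rise was 3.20-fold in IR24 (log2 1.68, SE 0.15, adjusted p = 0.000177) and 1.56-fold in FR13A (0.64, SE 0.15, adjusted p = 0.023). The call in IR24 stood whichever array was left out, and that in FR13A was lost without any one untreated or 24 h array (adjusted p from 0.072 to 0.19) or with scan day as a block (0.10). Within the only scan day that held both times, 1 array of each, the changes were 1.80 and 0.62. Those arrays had opposite dyes, so here and in the shared scan day values below a dye effect does not cancel.

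Pyruvate dehydrogenase kinase 1 rose in IR24, from 13.07 and 13.09 in untreated leaves and 12.92 and 12.57 at 15 min to 13.82 and 14.37 at 24 h (2.03-fold, log2 1.02, SE 0.20, adjusted p = 0.012). In FR13A the values were 13.78 and 14.00, 13.40 and 13.33, and 13.67 and 14.13, and the 24 h arrays lay around the untreated ones (change 0.01, SE 0.20, adjusted p = 0.99). The call in IR24 was lost without either untreated array or 24 h replicate 2 (adjusted p from 0.079 to 0.12) or with scan day as a block (0.097), and the change within the shared scan day was 1.30 in IR24 and 0.35 in FR13A.

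Malate dehydrogenases held the members that fell at 24 h, apart from 1 ATP synthase probe. The tobacco NAD-malate dehydrogenase-like AK058477 went from 10.56 and 10.79 to 9.51 and 9.12 in IR24, and from 10.89 and 11.64 to 8.89 and 9.02 in FR13A. It fell by 1.36 on the log2 scale in IR24 (2.57-fold, SE 0.24, adjusted p = 0.0077) and fell by 2.32 in FR13A (4.98-fold, SE 0.24, adjusted p = 0.00048). No 24 h array overlapped an untreated one. At 15 min it still lay at 10.59 and 10.48 in IR24 and 10.96 and 10.82 in FR13A. The nodule-enhanced malate dehydrogenase-like AK071297 went from 10.27 and 10.52 to 9.50 and 9.53 in IR24, and from 10.53 and 10.31 to 8.62 and 8.77 in FR13A. It fell by 0.88 in IR24 (SE 0.21, adjusted p = 0.029) and fell by 1.73 in FR13A (3.32-fold, SE 0.21, adjusted p = 0.00098), again without overlap. Both falls in FR13A stood whichever array was left out. In IR24 the call of AK058477 was lost without 24 h replicate 2 (adjusted p = 0.084), and that of AK071297 without any one untreated or 24 h array (adjusted p from 0.075 to 0.21) or with scan day as a block (0.065). Within the shared scan day AK058477 changed by -1.44 and -1.88 and AK071297 by -0.74 and -1.77 in IR24 and FR13A. The difference in fall between the genotypes was not called for either (AK058477 -0.95, adjusted p = 0.39; AK071297 -0.85, adjusted p = 0.45).

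The cytosolic malate dehydrogenase AK066396 fell by 0.88 in IR24 (SE 0.20, adjusted p = 0.024), from 14.50 and 13.83 to 13.39 and 13.18, and lay at -0.34 in FR13A (adjusted p = 0.36). Its call was lost without constitutive replicate 1 or either 24 h array (adjusted p from 0.13 to 0.21), and without constitutive replicate 1 the change was -0.54. The atpC-like AK064835 fell by 1.03 in FR13A (SE 0.20, adjusted p = 0.010), from 14.06 and 14.37 to 12.91 and 13.46, and lay at -0.68 in IR24 (adjusted p = 0.065). That call was lost without constitutive replicate 2 (adjusted p = 0.12) or 24 h replicate 1 (adjusted p = 0.11) or with scan day as a block (0.15), and the change within the shared scan day was -0.60.

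**Figure D3:**
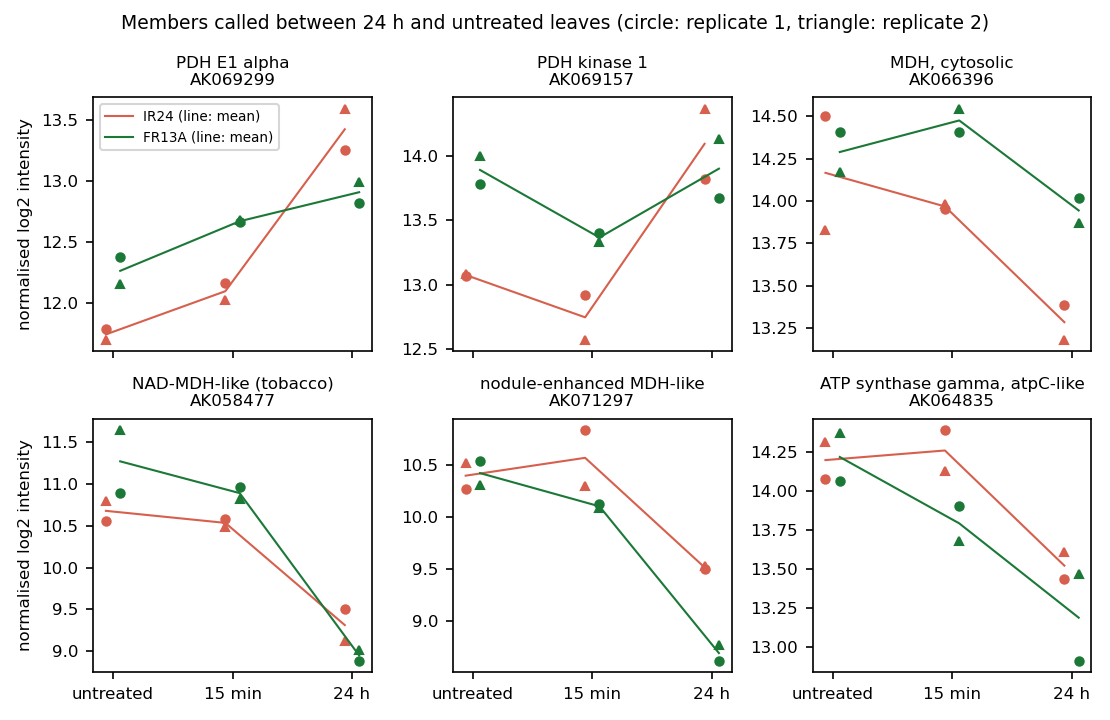
Normalised log2 intensity of the 6 members called between 24 h and untreated leaves in either genotype, on each array (circles, replicate 1; triangles, replicate 2) with lines through the means of 2 arrays. The vertical axes differ between panels and do not start at 0. E1 alpha climbs from 11.79 and 11.70 to 13.26 and 13.59 in IR24, and the tobacco NAD-malate dehydrogenase-like AK058477 drops in both genotypes between 15 min and 24 h.

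**Figure D4:**
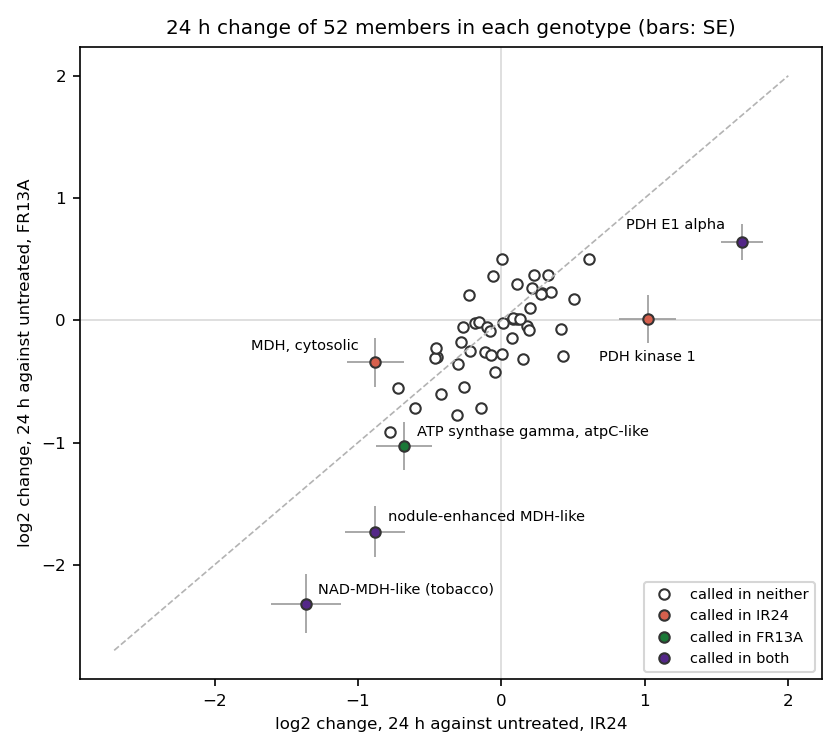
Log2 change at 24 h against untreated leaves in IR24 (horizontal axis) and FR13A (vertical axis) for the 52 members with complete values. Called members carry their SE and name, and the dashed line marks equal change. E1 alpha and pyruvate dehydrogenase kinase 1 lie below the line on the right, and the 2 largest falls, at -2.32 and -1.73 in FR13A, are malate dehydrogenase-like probes.

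Other genes were taken from a list of 112 probes chosen by words (other TCA enzymes, carriers, alternative oxidases, import and related descriptions). Of these, 107 were tested across all times. Some words, such as malic enzyme, porin and inorganic pyrophosphatase, did not require a mitochondrial description, so not every probe need be mitochondrial. Between the genotypes 17 of these were called, 10 higher and 7 lower in FR13A (15.9%, beside 20.2% of all probes). At 24 h 7 of 101 were called in IR24 (3 higher, 4 lower; 8.92% of all probes) and 9 of 101 in FR13A (2 higher, 7 lower; 9.83% of all probes). Alternative oxidases pass electrons from ubiquinol to oxygen without pumping protons. AOX1a (AK064040) fell by 1.12 in FR13A (SE 0.19, adjusted p = 0.0062) and AOX1b (AK107376) fell by 1.08 (SE 0.18, adjusted p = 0.0060), while IR24 gave -0.28 and -0.17 and was not called. The E2 component of pyruvate dehydrogenase is dihydrolipoamide acetyltransferase, and a probe like the Arabidopsis gene (AK070015) rose by 1.21 in IR24 (SE 0.24, adjusted p = 0.013) and lay at 0.04 in FR13A (adjusted p = 0.95). An electron transfer flavoprotein-ubiquinone oxidoreductase-like probe (AK065934), which delivers electrons of fatty acid and amino acid breakdown to the chain, rose by 1.57 in IR24 (adjusted p = 0.0060) and 1.67 in FR13A (adjusted p = 0.0043). For none of these 4 was the difference of the changes called (adjusted p from 0.21 to 0.99). These 4 are only some of the called probes of this list. Other settings and left-out arrays were examined for the members alone, so the stability of the calls on this list was not tested.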

How the data were processed

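RNA of FR13A and IR24 leaves was compared on 6 arrays of 2 colours, grouped as the labels state. Per the file headers, an array file gives spot and local background intensity for Cy3 and Cy5 and their log10 ratio (Cy5 over Cy3). The scanner software was Agilent Feature Extraction 8.1, per the submitters' processing notes. The deposited series table holds log10 ratios, which correlated at 1 (replicate 1) and -1 (replicate 2) with the scanner ratios and have column medians of 0, so they are FR13A over IR24.

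Controls (162 negative and 918 positive spots) were left out and marked spots set missing. Background was corrected with normexp (offset 50), arrays were normalised by loess in limma 3.58.1 (R 4.3.3), and log2 ratios were turned to FR13A over IR24. Dyes are exchanged between replicates. Probes stayed in (20315) where 1 channel or both stood well above background on 2 or more of the 6 arrays. Ratios were fitted with 1 mean per time and all 6 arrays sharing the spread. A value missing on an array leaves that array out for that probe. Changes within a genotype used the separate-channel fit after Aquantile (18907 probes, intraspot correlation 0.504). The limma tests were two-sided, adjusted by Benjamini-Hochberg across all probes kept, and checked on simulated data. Arrays were scanned on 3 days, and 1 day held constitutive replicate 1 with replicate 2 of both submerged groups. On that day the dyes of the untreated array were thus opposite to those of the submerged ones. Named are called members (up to 12 per direction), up to 3 members per role with the smallest p between genotypes, and up to 2 with the smallest p over the within-genotype changes. Members, lists and comparisons were chosen with earlier results of these data known. No array accession matched the RefSeq gene table (0 of 59 members), so no coordinates are given.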

Additional observations from a re-analysis of the deposited data

How the results depend on the processing

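Of the genotype comparisons, the count across all times (14 members called) was 13 to 18 under the alternatives that kept all 6 arrays. The exception was global median centring in place of loess, which left 4 (and 0 in untreated leaves, 0 at 15 min and 0 at 24 h). With median centring 5.11% of all probes were called across all times, and 1.18%, 0.901% and 1.52% in order of time. The other alternatives called 18.9% to 26% of all probes across all times, beside 20.2% in the main fit. At 24 h (7), the processed signals and the deposited values each gave 3 and a normexp offset of 10 gave 4. Of all probes these called 7.65%, 7.27% and 8.2%, beside 7.62% in the main fit. At 15 min (5), the deposited values gave 3, with 7.35% of all probes called beside 5.34% in the main fit. Scan day as a block gave 1 in untreated leaves (5 without it) and 2 at 15 min. Within genotypes at 24 h it gave 3 in IR24 and 2 in FR13A (5 and 4 without it). In the same order it called 3.03%, 3.68%, 7.36% and 6.91% of all probes. The main fits called 6.15%, 5.34%, 8.92% and 9.83%. Across all times this block added calls of AK062242 (adjusted p = 0.026), AK064496 (0.023), AK064531 (0.028), AK064953 (0.021) and AK070042 (0.048). The day terms take degrees of freedom from a ratio fit that has 3. Constitutive replicate 2, the only array of its day, then adds nothing to the spread. Calls lost or added under this block thus need not reflect scan day. Leaving out 1 array at a time gave 9 to 12 across all times, 0 to 6 in untreated leaves, 1 to 2 at 15 min, 1 to 6 at 24 h, 1 to 6 for IR24 at 24 h and 2 to 7 for FR13A at 24 h. With 1 array left in a group, the lone array is assumed to vary like the others, and the separate-channel fits took the intraspot correlation of all arrays (0.504), since it could not be estimated. The replicate number is also the dye orientation. Same-numbered arrays deviated together with correlations of 0.0996, 0.0596 and 0.402 between the groups, so the numbers are not shown to pair the samples. With the replicate block the counts were 15 across all times, 4 in untreated leaves, 5 at 15 min and 6 at 24 h. Within genotypes at 24 h they were 4 for IR24 and 3 for FR13A. The shares of all probes called were 22.6%, 6.11%, 5.26%, 7.95%, 6.23% and 6.57% in the same order. No called member changed sign under any alternative run. Signal over background limits the lemon aconitase-like probe and the complex I subunit-like AK072342, whose difference across all times the processed signals put at 3.67.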
